A study of Mus musculus with 2 samples.

Results

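The genes for GABA and glycine transmission were read in the neural tube, the embryonic precursor of brain and spinal cord, as a set of 30 genes chosen by symbol among the 43346 genes of the deposited tables. The set holds 16 subunit genes of the GABA-A receptor, 5 of the glycine receptor and 2 of the GABA-B receptor, with 2 GABA synthesis genes, 2 transmitter transporters, 2 chloride transporters and the scaffold gene Gphn. The rule matches names and uses no measured value. All 30 were found in both libraries.

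GABA and glycine are the inhibitory transmitters of the mature brain and spinal cord. Both open receptor channels that pass chloride, so their action depends on the chloride inside the cell, which the importer encoded by Slc12a2 raises and the exporter encoded by Slc12a5 lowers. In the immature nervous system Slc12a2 is known to prevail, and GABA then depolarizes cells. Receptor channels are rings of subunits, and in rodents some subunits are known as embryonic and others as adult forms. The GABA-B receptor is instead coupled to G proteins and needs both of its subunits at the cell surface.

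The samples were 2 libraries of total RNA from neural tube of B6NCrl mouse embryos at embryonic day 11.5, with both sexes pooled. Replicate 1 came from 109 embryos and replicate 2 from 88, and both carry the same donor label. Each library began with 10 ng of RNA longer than 200 bases, with spike-in RNAs added. There was 1 group and no treatment or genotype contrast, so the comparisons are between genes within a library and between the libraries, with no test. Total expected counts, the estimated reads assigned to genes and other entries, were 27638068 in replicate 1 and 29166901 in replicate 2. All 6 neuron markers and all 5 progenitor markers were above 1 TPM (a level per transcript length, scaled to the same total in every library) in both libraries, as labelled. Values given in pairs are from replicate 1 and replicate 2 in that order. The pools also held RNA of other tissues: the 4 blood markers summed to 8654 and 8717 TPM and the 4 connective tissue markers to 557 and 500.1 TPM. The 5 sensory ganglion and neural crest markers summed to 210 and 266 TPM. That sum includes Isl1 at 86.0 and 109 TPM and Pou4f1 at 61.4 and 76.1 TPM. Neurons of the neural tube also make both, so the sum does not measure RNA from ganglia. In such bulk tissue, fewer cells of a type and less RNA per cell cannot be told apart.

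With detection set at 1 TPM or more in both libraries, 16 of the 30 genes were detected (53.3%), against 59.9% of 21474 protein-coding genes. The share was near that background. Of the rest, 13 genes were below 1 TPM in both libraries and Gabra5 passed in replicate 2 only. The median of the 30 mean levels was 1.36 TPM, against 4.395 TPM for protein-coding genes. The sum over all 30 was 98.4 TPM for replicate 1, and for replicate 2 it was 102 TPM. Detected were 6 of 16 GABA-A subunit genes, 2 of 5 glycine receptor genes and 1 of 2 GABA-B genes. The genes for GABA synthesis, transmitter transport, chloride transport and the scaffold were detected without exception.

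**Figure D1:**
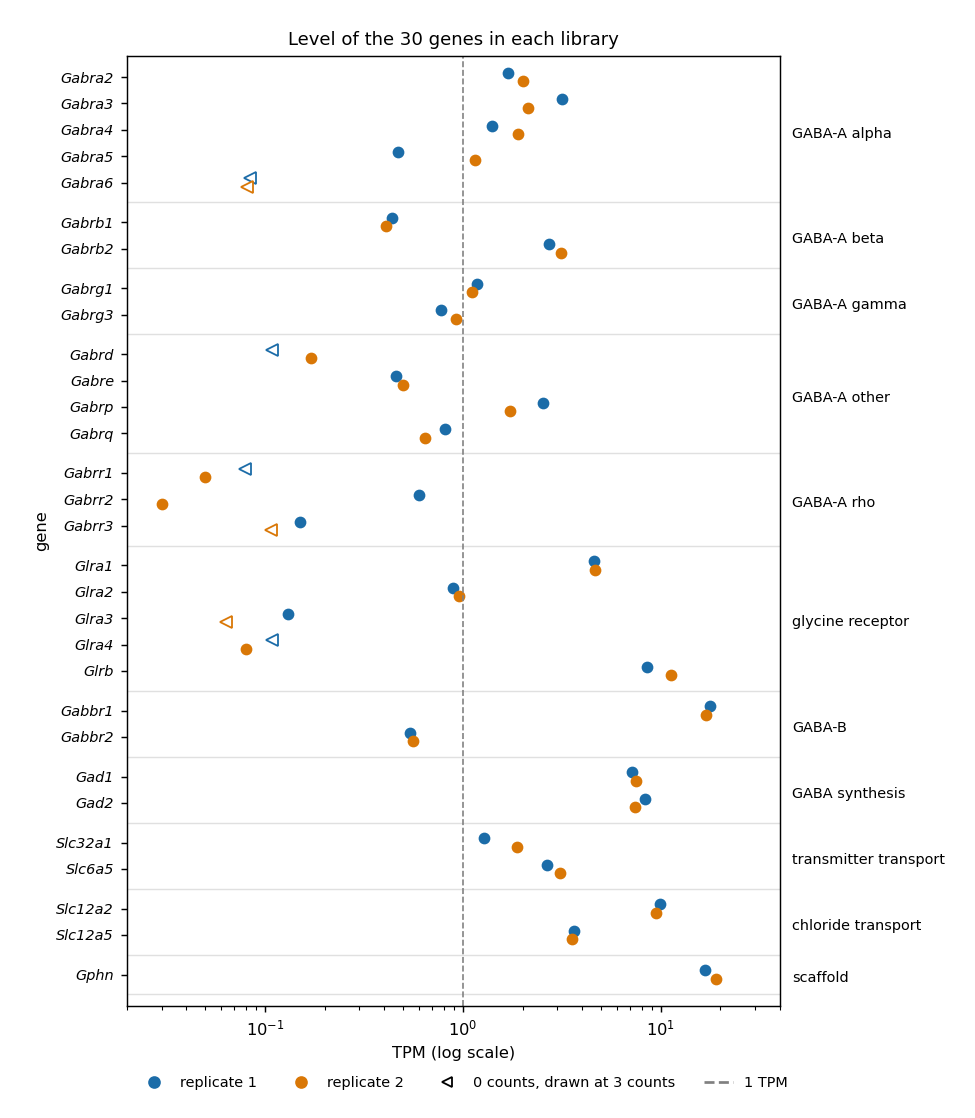
Level of each of the 30 genes in TPM on a log axis, grouped by role, with 1 point per library; open triangles stand at the level that 3 counts would give where a gene had 0 counts. Gphn and Gabbr1 lie highest, at 16.7 TPM or more in both libraries, and no GABA-A subunit exceeds 3.18 TPM in either.

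Gad1 and Gad2 encode the glutamate decarboxylases that make GABA. Gad1 had 7.15 TPM in replicate 1 and 7.48 TPM in replicate 2, from 315 and 359 expected counts. Gad2 had 8.28 and 7.43 TPM, from 556 and 608 counts. The ranges of the 2 genes overlapped, and the log2 ratio of Gad1 over Gad2 was −0.21 in replicate 1 and 0.01 in replicate 2. Both levels take in other transcripts than the full coding ones. Gad1-201 alone had 1.99 and 0.96 TPM, and Gad2-201 alone 5.34 and 5.82 TPM.

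Slc32a1 encodes the vesicular transporter that loads both GABA and glycine, and Slc6a5 the membrane transporter that supplies glycine to glycinergic terminals. Slc6a5 had 2.67 and 3.08 TPM from 324 and 385 counts. Slc32a1 had 1.28 and 1.88 TPM from 60 and 91 counts. Slc6a5 was thus the higher of the pair in both libraries, with log2 ratios of 1.06 and 0.71 and a fold of 1.85. Of the 100-base windows of Slc32a1, 22.2% also occur in Gm14205, an antisense gene listed at 0 in both libraries, so reads there were assigned to Slc32a1 alone.

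The importer gene Slc12a2 stood above the exporter gene Slc12a5 in both libraries. Slc12a2 (chromosome 18) had 9.92 TPM in replicate 1 and 9.46 TPM in replicate 2, from 1108 and 1090 counts. Slc12a5, which is known to be restricted to neurons (chromosome 2), had 3.66 and 3.57 TPM, from 286 and 333 counts. The 2 ranges did not overlap, and the log2 ratio of Slc12a2 over Slc12a5 was 1.44 and 1.41, or 1.42 ± 0.023 (SD, n = 2). That is 2.68-fold, with 95% exact intervals for counting error of 2.38 to 3.10 in replicate 1 and 2.34 to 3.0 in replicate 2. With Slc12a5 read from its full coding transcript alone, an alternative added after the transcript shares were seen, the fold was 4.04. Slc12a7, a more widely expressed potassium-chloride cotransporter gene, had 29.5 and 32.4 TPM, which is 8.55-fold above Slc12a5.

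**Figure D2:**
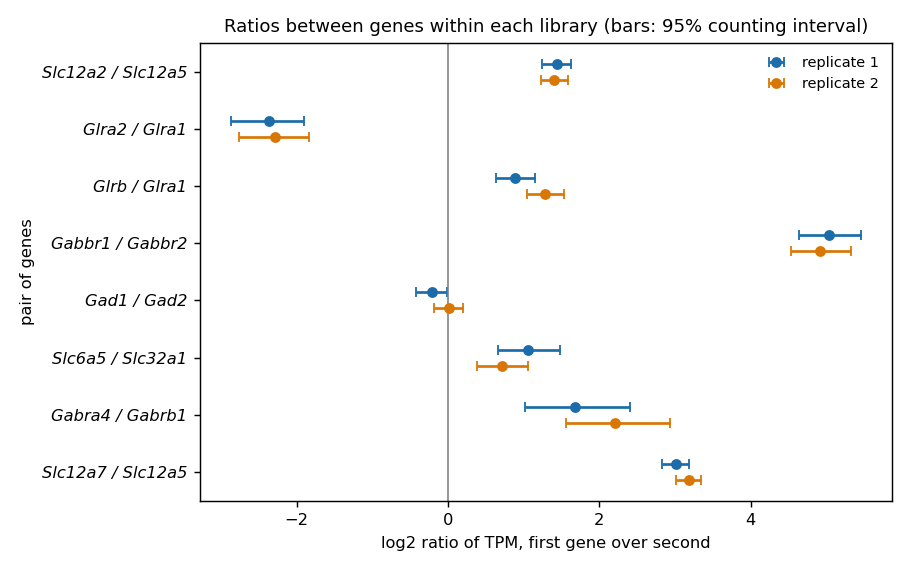
Log2 ratio of TPM between 2 genes within each library, with the first-named gene on top; points are libraries and bars are 95% exact intervals for counting error only. Slc12a2 lies above Slc12a5 by 1.44 and 1.41, Glra2 lies below Glra1, and only the Gad1 and Gad2 pair has an interval that crosses 0, in replicate 2.

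Around the transporters, 10 of 13 related cotransporter and kinase genes were detected. The highest were Wnk1, a chloride-sensing kinase, at 39.7 ± 0.636 TPM, then Stk39, Slc12a7 and Oxsr1 at 31.6 ± 0.445, 30.9 ± 2.02 and 12.9 ± 0.552 TPM (SD, n = 2). Stk39 and Oxsr1 encode the kinases that pass the WNK signal to these transporters. The kidney cotransporters Slc12a1 and Slc12a3 had 0.045 ± 0.0071 and 0.010 ± 0.014 TPM (SD, n = 2).

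Slc12a5 is known in rodents to start from alternative first exons, which give isoforms with different amino ends. Slc12a5-201, the full coding transcript from the downstream start, took 57.8% of the gene in replicate 1 and 75.9% in replicate 2. Slc12a5-202, a short transcript from the upstream start, took 6.41% and 0%, from 1.48 and 0 counts. The remaining 35.8% and 24.1% fell on Slc12a5-205, typed as a retained intron, which begins near the 3′ end of the gene. Reads were thus assigned almost wholly to transcripts other than the upstream-start one, although the full-length transcripts of the upstream start in the newer annotation are not among those listed in the tables. Reads from such transcripts could be assigned only to those listed, so the shares do not compare use of the 2 starts. The sequences around both annotated starts are shown, with the 50 transcribed bases in capitals (RefSeq, GRCm38.p6, plus strand, chr2:164960596-164960895 and chr2:164967738-164968037).
Slc12a5 upstream start: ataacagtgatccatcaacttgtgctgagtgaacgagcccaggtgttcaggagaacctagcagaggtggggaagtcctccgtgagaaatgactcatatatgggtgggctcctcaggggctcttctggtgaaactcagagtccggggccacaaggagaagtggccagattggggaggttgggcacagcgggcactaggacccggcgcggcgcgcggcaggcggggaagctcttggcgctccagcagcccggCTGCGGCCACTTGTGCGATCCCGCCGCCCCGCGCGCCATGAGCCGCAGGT
Slc12a5 downstream start: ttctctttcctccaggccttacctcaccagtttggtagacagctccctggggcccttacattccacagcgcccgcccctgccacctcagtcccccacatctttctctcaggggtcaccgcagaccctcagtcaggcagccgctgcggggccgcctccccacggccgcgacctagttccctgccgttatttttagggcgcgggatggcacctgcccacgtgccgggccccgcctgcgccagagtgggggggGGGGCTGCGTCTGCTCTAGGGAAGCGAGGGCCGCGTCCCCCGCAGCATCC
Both are rich in G and C, at 63.7% upstream and 68.3% downstream, each with 21 CG dinucleotides, against a median of 52.7% and 7 over 32851 promoter windows of the same length.

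GABA-A channels are built around alpha and beta subunits. Among the alpha genes, 3 of 5 were detected. Gabra3 had 3.18 TPM in replicate 1 and 2.12 TPM in replicate 2, from 124 and 114 counts. Gabra2 had 1.68 and 2.02 TPM, and Gabra4 had 1.41 and 1.90 TPM. The range of Gabra3 lay above that of Gabra2, and the ranges of Gabra2 and Gabra4 overlapped. Gabra5, the subunit gene known for extrasynaptic channels of the hippocampus, had 0.47 and 1.15 TPM from 20.9 and 52.9 counts. It was the 1 gene of the set with counts that were not whole, to a tolerance of 0.005. An opposite-strand gene that overlaps it had a mean of 0.1 TPM or more. Gabra6, known for adult cerebellar granule cells, had 0 counts in both libraries, so its level is limited to the 0.0840 TPM (replicate 1) or 0.0814 TPM (replicate 2) that 3 counts would give. The level of Gabra2 rests on a single listed transcript. GENCODE M21 types it as a target of nonsense-mediated decay, but with 2245 bases against 2392 in the deposited values. The type may therefore not apply to the form that was read.

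Of the beta genes, Gabrb2 had 2.71 and 3.14 TPM and Gabrb1 had 0.44 and 0.41 TPM. Gabrb2 was the highest of the 16 GABA-A genes by mean, at 2.93 ± 0.304 TPM (SD, n = 2), with ranges that overlapped those of Gabra3. Of the gamma genes, which shape benzodiazepine response, Gabrg1 had 1.18 and 1.11 TPM and Gabrg3 had 0.77 and 0.92 TPM. Only Gabrg1 passed 1 TPM in both libraries.

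The delta, epsilon, pi and theta subunit genes were low but for Gabrp. Gabrp, the pi subunit gene known from epithelial tissues, had 2.55 and 1.72 TPM from 141 and 98 counts. The surface epithelium markers were present beside it, 5 of 5 detected with sums of 36.0 and 35.5 TPM; their part in the level of Gabrp was not tested. Gabrq had 0.81 and 0.64 TPM, Gabre 0.46 and 0.50 TPM, and Gabrd, the delta subunit gene of tonic inhibition, 0 and 0.17 TPM from 0 and 1 counts. The rho genes, best known from the retina, were near the limit of detection. Gabrr2 had 0.60 and 0.03 TPM from 11 and 1 counts, Gabrr3 had 4 and 0 counts, and Gabrr1 had 0 and 2 counts.

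Several of these genes lie in clusters (GRCm38). On chromosome 5, Gabrg1, Gabra2, Gabra4 and Gabrb1 follow each other between 70751047 and 72149037. Mean levels there were 1.15 ± 0.049, 1.85 ± 0.240, 1.66 ± 0.346 and 0.425 ± 0.021 TPM in that order (SD, n = 2), so 3 neighbours were above 1 TPM and Gabrb1 was below. Gabra4 and Gabrb1 are annotated head to head with an overlap of 0.196 kb, in which reads cannot be told apart without strand information. Gabra4 was above Gabrb1 with log2 ratios of 1.68 and 2.21. The Gabrb1 transcript listed in the tables starts 41.6 kb away from that overlap. On chromosome X, between 72255999 and 72842602, Gabra3 at 2.65 ± 0.75 TPM stood between Gabre at 0.480 ± 0.028 TPM and Gabrq at 0.725 ± 0.120 TPM. Gene neighbours therefore did not share 1 level in either cluster.

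Embryonic and adult subunits were compared as short lists: Gabra2, Gabra3, Gabra5 and Glra2 as embryonic, and Gabra6, Gabrb2, Gabrd and Glra1 as adult. The embryonic median was 1.29 TPM in replicate 1 and 1.59 TPM in replicate 2, against 1.36 and 1.66 TPM for the adult list. The log2 ratio of the medians was −0.08 and −0.06, with a mean of −0.07 ± 0.010 (SD, n = 2), so the lists hardly differed in their middle. Split by receptor family, the comparison rested on few genes. Among GABA-A genes alone the embryonic median was 1.68 and 2.02 TPM (Gabra2). The adult median there was 0 and 0.17 TPM (Gabrd, from 0 and 1 counts). Adult Gabrb2, at 2.71 and 3.14 TPM, was nevertheless above embryonic Gabra2 and Gabra5 in both libraries, and above Gabra3 in replicate 2 only. Of the glycine receptor genes, embryonic Glra2 had 0.89 and 0.95 TPM and adult Glra1 had 4.59 and 4.64 TPM. In each list, 2 of 4 genes were detected. The adult list was split, with Gabrb2 and Glra1 at 2.71 TPM or more in both libraries and Gabra6 and Gabrd at 0 or 1 count. By sums, the embryonic list had 6.22 and 6.24 TPM and the adult list 7.30 and 7.95 TPM, a log2 ratio of −0.29 ± 0.084. The neuroepithelial subunit genes Gabra4, Gabrb1 and Gabrg1 had medians of 1.18 and 1.11 TPM. These age classes are those known from rodent brain and spinal cord, and no older stage was measured here.

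Glycine receptors pair alpha subunits with the beta subunit encoded by Glrb, which binds the scaffold gephyrin. In rodents Glra2 is known as the embryonic and Glra1 as the adult alpha subunit gene. Glra2 had 0.89 TPM in replicate 1 and 0.95 TPM in replicate 2, from 47 and 52 counts. Glra1 had 4.59 and 4.64 TPM, from 182 and 190 counts. The ranges did not overlap: Glra2 was below Glra1 in both libraries, with log2 ratios of −2.37 and −2.29 and a mean of −2.33 ± 0.056 (SD, n = 2). With a pseudocount of 1 TPM added to both genes the mean was −1.55. Without strand information, reads of an opposite-strand gene that overlaps Glra1, at a mean of 0.1 TPM or more, cannot be told apart from its own. Glra3 had 4 and 0 counts, and Glra4 had 0 and 2 counts.

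Glrb, at 8.52 and 11.3 TPM from 408 and 510 counts, was above Glra1 with log2 ratios of 0.89 and 1.28. Its main transcript Glrb-201 took 92.7% and 82.9%, or 7.89 and 9.36 TPM. The short Glrb-203, of 563 bases, held 0.59 and 1.86 TPM of the gene from 4.73 and 15.5 counts. Glra1 is known to be spliced in 2 forms that differ by a short stretch in the large intracellular loop. Glra1-202, the form without that stretch, took 97.2% and 97.9% of the gene, and Glra1-201, which holds it, took 2.83% and 2.15% from 4.37 and 3.47 counts. The 24 bases that part them, 8 codons, are shown 5′ to 3′ on the minus strand (chr11:55515104-55515127, GRCm38), in lower case throughout.
Glra1 extra stretch: agccccatgctaaatctgtttcag

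The GABA-B genes had the largest ratio of the pairs plotted. Gabbr1, which binds GABA, had 17.7 TPM in replicate 1 and 16.9 TPM in replicate 2, from 1135 and 1073 counts. Gabbr2, which carries the receptor to the surface and couples it to G proteins, had 0.54 and 0.56 TPM, from 53 and 57 counts. Gabbr1 was 31.4-fold above Gabbr2, with log2 ratios of 5.03 and 4.92 and counting intervals of 24.9 to 44.0 and 23.1 to 40.1. Gabbr1 is known to have a long and a short form from separate starts. Gabbr1-201, from the upstream start with 2880 coding bases, took 38.0% and 33.9%, and Gabbr1-203, from the downstream start with 2532 coding bases, took 37.6% and 33.6%. The 2 forms were thus at nearly the same share in each library, and the shorter Gabbr1-202 took 15.8% and 14.6%.

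Among auxiliary and effector genes of the GABA-B receptor, 4 of 7 were detected. These were the auxiliary subunit genes Kctd12 at 9.34 ± 2.63 TPM, Kctd12b at 2.48 ± 0.311, Kctd16 at 1.84 ± 0.247 and Kctd8 at 1.77 ± 0.474 TPM (SD, n = 2). None of the 3 potassium channel genes in that list reached 1 TPM in either library, and Kcnj6 was at 0 in both.

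Gphn encodes gephyrin, which anchors glycine and GABA-A receptors and also serves in molybdenum cofactor synthesis in all tissues. It had 16.7 and 18.9 TPM from 929 and 1087 counts, a range that overlapped that of Gabbr1. Gphn-202 took 79.3% and 76.4% of the gene and Gphn-201 took 20.7% and 23.6%. All 11 listed genes for inhibitory synapse scaffold and receptor trafficking were detected, led by Gabarap at 427 ± 6.5, Gabarapl2 at 248 ± 0.580, Mocs2 at 67.9 ± 0.509 and Clptm1 at 53.2 ± 0.325 TPM (SD, n = 2). These are also used outside synapses, in autophagy, cofactor synthesis and protein folding.

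Across the 16 detected genes taken in order of mean level, 9 of 15 neighbouring pairs had overlapping ranges. The steps without overlap lay between Gabbr1 and Glrb, Slc12a2 and Gad2, Gad1 and Glra1, Glra1 and Slc12a5, Slc12a5 and Gabrb2, and Slc32a1 and Gabrg1. The 2 highest genes, the 4 between 5 and 10 TPM and the 10 below 5 TPM by mean thus formed separable tiers. By these ranges of 2 values, Glra1 and Slc12a5 stood apart at the top of the lowest tier and Gabrg1 at the bottom. The 7 neighbours between them overlapped from each to the next. The deposited TPM intervals within a library kept the tiers apart but not all steps inside them. They overlapped in both libraries for Slc12a2 and Gad2, Glra1 and Slc12a5, and Slc12a5 and Gabrb2. For Slc32a1 and Gabrg1 they overlapped in replicate 1 only. In replicate 1, Glra1 had 3.89 to 5.19 TPM and Slc12a5 had 3.11 to 4.55 TPM.

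Gad1 was divided among several transcripts. It is known to make an embryonic form in rodents in which an added exon carries a stop codon and truncates the protein. The largest share went to Gad1-206, typed as a processed transcript, which starts at an exon of its own inside the gene and took 41.5% in replicate 1 and 66.1% in replicate 2. Gad1-201, the full coding transcript, took 27.8% and 12.8%, from 112 and 56.1 counts. Transcripts that hold the added exon, Gad1-203, Gad1-205 and Gad1-207, together took 24.4% and 19.2%, from 45.9 and 41.5 counts. The share with the added exon was thus close to that of Gad1-201 alone in replicate 1 and above it in replicate 2. Gad1-206 lacks the added exon too, so transcripts without the exon took most of the gene in both libraries. Gad1-206 and Gad1-201 share their later exons, and the division between them moved between libraries, with 150 and 257 counts for Gad1-206. Most of the share with the added exon was Gad1-205, in which the exon runs on to 702 bases. Gad1-203, with the exon at its spliced length of 80 bases, had 6.17 and 0 counts. The exon is shown 5′ to 3′ on the plus strand (chr2:70584420-70584499, GRCm38), with the stop codon at its bases 35 to 37 in capitals, after 34 bases annotated as coding.
Gad1 extra exon: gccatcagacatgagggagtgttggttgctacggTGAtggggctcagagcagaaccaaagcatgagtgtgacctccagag
The annotated coding part is 669 bases in the transcripts with this exon and 1779 bases in Gad1-201. An opposite-strand gene with a mean of 0.1 TPM or more overlaps Gad1, and its reads cannot be told apart without strand information.

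**Figure D3:**
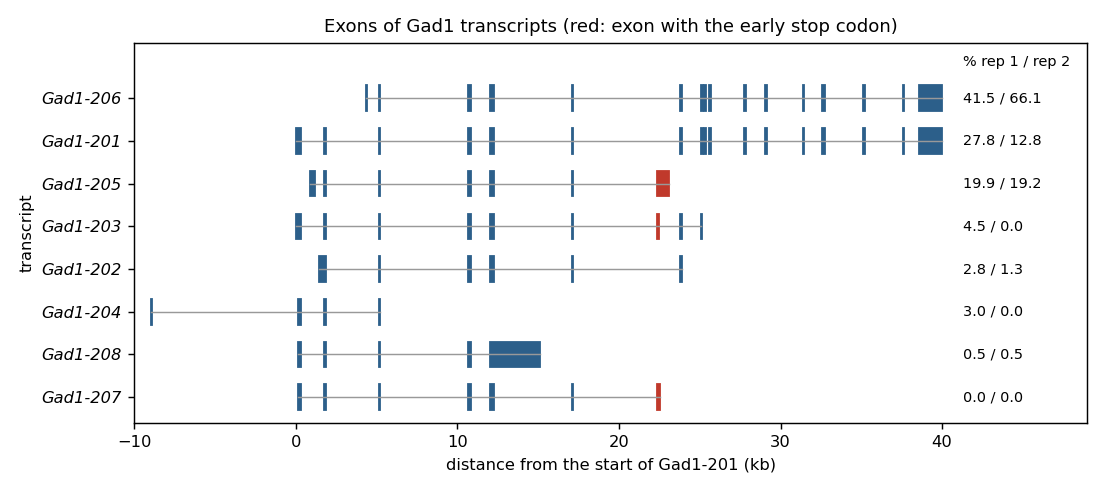
Exons of the listed Gad1 transcripts by distance from the start of Gad1-201 in kb, each line 1 transcript, with its percent of the gene in replicate 1 and replicate 2 at the right; red marks exons that begin at the same base and hold the early stop codon. Gad1-206 and Gad1-201 share their later exons and differ at the start, and the transcripts with a red exon end well before the 3′ end of Gad1-201.

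Gad2 was read mainly from Gad2-201, at 64.5% and 78.4%. The short Gad2-202, typed as a processed transcript of 721 bases, took the remaining 35.5% and 21.6% from 31.8 and 17.9 counts. Of the GABA-A genes, Gabra3-201 took 47.0% and 69.6% and Gabrb2-201 took 81.3% and 87.6%. Gabra3-203, a fragment of 589 bases, took 27.2% in replicate 1 from 7.36 counts and 0% in replicate 2, and held 0.86 of the 3.18 TPM of the gene in replicate 1. Slc6a5 and Gabrp each had 1 of 2 listed transcripts at 100% in both libraries. Slc12a2 has only 1 listed transcript, so its 100% was fixed in advance. The leading transcript was the same in both libraries for 11 of 11 detected genes with several transcripts, against 90.5% of 9416 protein-coding genes.

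**Figure D4:**
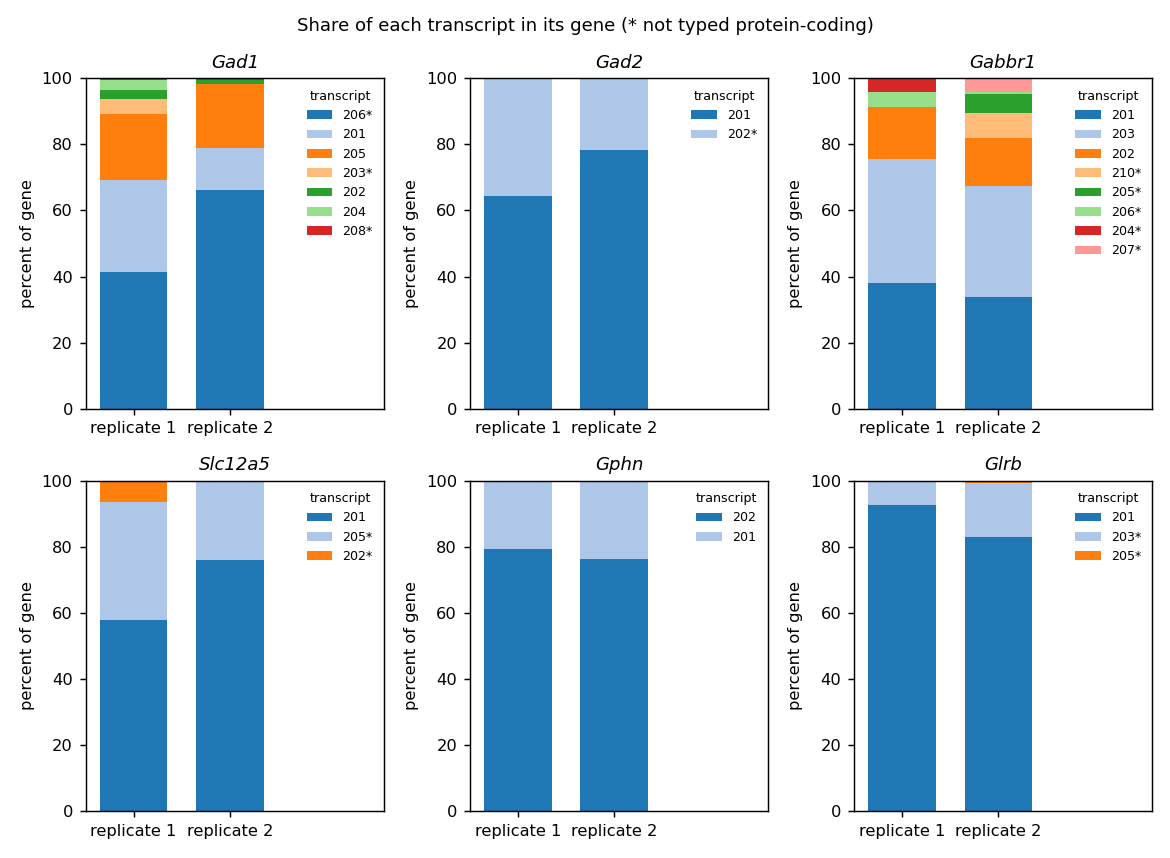
Percent of each gene taken by each of its transcripts in replicate 1 and replicate 2, as stacked bars for 6 genes, with transcript numbers in the legend and an asterisk where GENCODE types the transcript as other than protein-coding. The leading transcript is the same in both libraries for every gene drawn, and its share in Gad1 is 41.5% and 66.1%.

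Promoter windows from 250 bases before to 50 bases after a start were available in RefSeq for 27 of the 30 genes, with 33 starts. Their median GC content was 56.7%, against 52.7% over all windows, and their median number of CG dinucleotides was 12 against 7. The TATA motif TATAAA, searched on both strands, was in 5 of 33 windows (15.2%), against 13.6% of all. The windows of Gabra3 are among the 5 and overlap each other, so the same motif may be counted in each. The E-box CAGCTG, the same on both strands, was in 2 of 33 (6.06%), against 16.3%. The repressor element core TTCAGCACC, on either strand, was in 0 of 33, against 0.371%.

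Replicate 2 and replicate 1 were close for most of the set. After scaling, 24 genes had at least 10 counts in at least 1 library, and 3 of them (12.5%) differed by more than 1.5-fold, against 10.8% of 17219 genes. Of the 3, 1 was higher in replicate 2, against 4.87% of all genes, and 2 were lower, against 5.94%. Higher in replicate 2 by any amount were 15 of the 24 and lower were 9, with a median log2 ratio of 0.08, against 0.00 for all genes, of which 49.6% were higher. The 3 past 1.5-fold were Gabra5, at 2.26-fold in replicate 2 over replicate 1 (counting interval 1.41 to 4.14), Gabrp at 0.659-fold (0.50 to 0.852) and Gabrr2 at 0.223-fold (0.00199 to 0.589). With a filter of 50 counts in at least 1 library, 21 genes of the set were left, and 2 of them (9.52%), Gabra5 and Gabrp, were past 1.5-fold, against 3.14% of 13823 genes. Among genes with many counts, Gphn was at 1.10-fold, Slc12a2 at 0.926-fold and Gabbr1 at 0.890-fold in replicate 2 over replicate 1. Beside this, all 6 neuron markers were higher in replicate 2, with sums of 1709 TPM in replicate 2 and 1473 TPM in replicate 1, and all 4 connective tissue markers were lower, with sums of 500.1 TPM in replicate 2 and 557 TPM in replicate 1. All 3 muscle markers were lower too, with sums of 195 TPM in replicate 2 and 232 TPM in replicate 1. All 5 sensory ganglion and neural crest markers were higher in replicate 2. The part of tissue make-up in the differences was not tested.

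**Figure D5:**
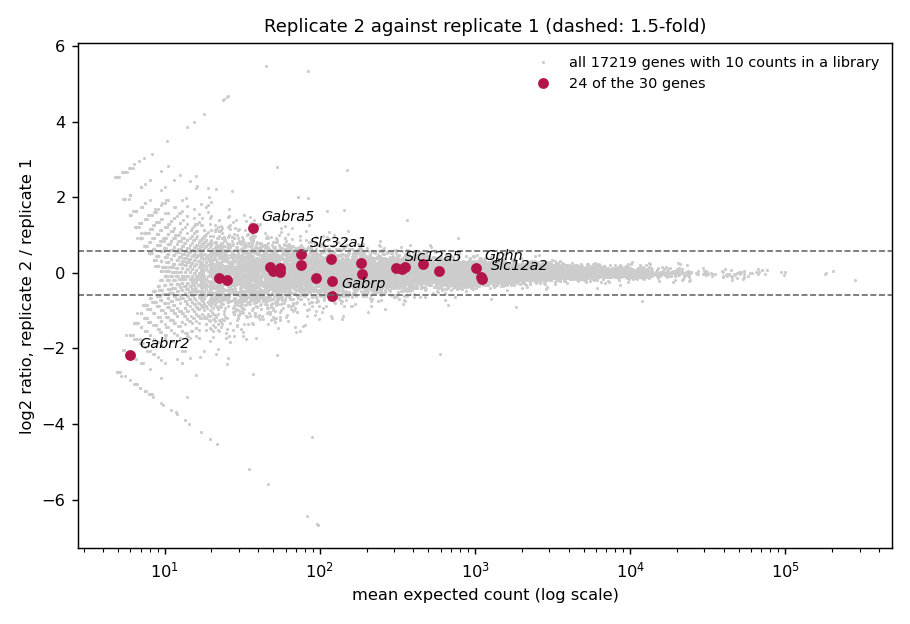
Log2 ratio of replicate 2 over replicate 1 against mean expected count on a log axis, for all genes with 10 counts in at least 1 library (grey) and for 24 of the 30 genes (red); dashed lines mark 1.5-fold. Gabra5 lies above the upper line, Gabrp and Gabrr2 lie below the lower one, and Slc12a2 and Gphn, at 929 counts or more, lie close to 0.

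The surroundings of the set were read from lists of related genes. All 6 genes that supply glutamate and glycine were detected, led by Slc38a2 at 166 ± 0.813, Glul at 102 ± 3.12, Shmt2 at 57.1 ± 6.21 and Slc38a1 at 50.4 ± 4.16 TPM (SD, n = 2). Of 9 genes for uptake and breakdown, 8 were detected, with the GABA transaminase gene Abat at 42.7 ± 6.98 TPM and the glycine cleavage genes Gcsh, Gldc and Amt at 123 ± 3.78, 16.4 ± 1.58 and 14.8 ± 0.240 TPM (SD, n = 2). The GABA transporter gene Slc6a11 was the exception, at 0.42 and 0.87 TPM. Abat, which breaks GABA down, was thus above both Gad1 and Gad2 in both libraries.

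Transcription factor genes of inhibitory neurons were detected in 14 of 15 cases, led by Tfap2b at 36.0 ± 3.15, Lhx1 at 34.9 ± 2.6, Lhx5 at 24.7 ± 0.431 and Pax8 at 20.3 ± 0.389 TPM (SD, n = 2). Several of them also mark progenitors or neural crest. Among mature interneuron markers, Pvalb and Vip stayed at or below 0.23 TPM, and Sst, which is also made by early neurons, had 93.6 and 103 TPM. Of the 3 astrocyte genes, Gfap and Aqp4 stayed at or below 0.16 TPM, and Slc1a2, a glutamate transporter gene, had 10.7 and 10.2 TPM.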

How the data were processed

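The authors deposited expected counts (estimated reads) for genes and transcripts, together with TPM and FPKM values. Per the deposited file descriptions, the build was mm10 and the annotation GENCODE M4. Transcript shares, as a percent of the gene, are also the authors' values. Spike-ins are part of the TPM total, at 13.2% (replicate 1) and 11.8% (replicate 2). The names of aligner and quantifier, and whether strand was kept, were not given in the sources used here. In addition, the labels name both total RNA-seq and a SmartSeq protocol. GENCODE M21 on GRCm38 supplied symbols, types and coordinates, joined on identifiers without version; 42462 of 43346 matched. RefSeq GRCm38.p6 gave promoter windows.

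Ratios between genes used TPM within a library. Ratios between libraries used rounded expected counts with edgeR 4.0.16 in R 4.3.3 (TMM factors 0.9965 and 1.004, prior count 2) and a filter of 10 counts in at least 1 library; DESeq2 1.42.0 gave other size factors. The ratios between libraries were tested on simulated counts, but only for genes with far more counts than Gabra5 or Gabrr2 had. That test does not cover calls at low counts. Intervals are exact 95% binomial intervals, and limits for 0 counts are 3 counts; both cover counting error only, since reads were not tied to molecules by identifiers. The rest used Python 3.11.15 (numpy 2.4.6, pandas 2.3.3, scipy 1.17.1). No test was run, since there is 1 group of 2 pools. The rule named each of the 30 genes, the 4 highest of other lists with up to 2 below 1 TPM, and the main transcripts of detected genes. The genes, lists and rule were chosen with earlier results of these data known. Alternatives were other units, filters, scalings, lists and each library alone. Some related genes are not reported here.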

Additional observations from a re-analysis of the deposited data

How the results depend on the processing

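Of 36 alternatives, 23 left a result within the spread between libraries, or a count within 1.5 times, and 13 moved it. None of the log2 ratios changed sign. Counts and median levels have no sign to reverse. A ratio with the same sign in both libraries also keeps it when a library is left out or a pseudocount is added. For a log2 ratio, leaving out either of 2 libraries stays within the spread between libraries by construction. The count of leading transcripts moved only because fewer genes were counted. The tally is thus not a measure of robustness. The log2 ratio of Slc12a2 over Slc12a5 was 1.42, and 1.31 with posterior mean TPM, 1.21 with a pseudocount of 1 TPM, 1.83 with expected counts not divided by length and 2.01 with the full coding transcript of Slc12a5 alone, which was chosen after seeing the data; it ran between 1.41 and 1.44 with either library left out. The ratio of the embryonic to the adult median was −0.07, and −0.41 with posterior mean TPM, −0.041 with the pseudocount, −0.29 with sums and −0.36 with Gabra4, Gabrb1 and Gabrg1 added to the embryonic list; with either library left out it ran between −0.08 and −0.06. A restriction to GABA-A genes was not among the 36. There the embryonic medians were 1.68 and 2.02 TPM (Gabra2), against adult medians of 0 and 0.17 TPM (Gabrd). By this median the embryonic list was the higher in both libraries, the reverse of the full lists. The adult median was 1 gene near 0, and adult Gabrb2, at 2.71 and 3.14 TPM, was above Gabra2 in both. No log2 ratio could be taken in replicate 1, where the adult median was 0. The log2 ratio of Glra2 over Glra1 was −2.33, and −1.55 with the pseudocount and −1.91 with counts not divided by length; with either library left out it ran between −2.37 and −2.29. Without a filter on low counts, 7 genes differed by more than 1.5-fold between libraries instead of 3. With genes at a mean of 5 TPM or more, 5 of 5 kept their leading transcript. The median level was 1.36 TPM and 0.845 as FPKM. The count of detected genes ran from 11 at 2 TPM to 23 with 10 counts in both libraries, and was 17 or 16 with replicate 1 or replicate 2 left out. The cause of these moves was not tested. With 2 libraries of 1 group, the SD is of 2 pools; genes below 50 counts, such as Gabrr2, were limited by counting error.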
